A study of Mus musculus with 5 samples.

Results

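The 9 genes described here encode the brakes and the D-type cyclins of the G1 phase of the cell cycle. They were taken by name from the deposited table of 19699 gene entries, and all 9 were found. Of them, 3 are inhibitors of the Cip/Kip family (Cdkn1a, Cdkn1b and Cdkn1c), 3 are inhibitors of the INK4 family (Cdkn2b, Cdkn2c and Cdkn2d), and 3 are D cyclins (Ccnd1, Ccnd2 and Ccnd3). RNA was sequenced from dissected lung airway (trachea included) of C57 mouse embryos at E13.5. The 2 mutant libraries carry the genotype label of a Prmt5 knockdown, while the study's own text describes a knockout of Prmt5 in lung epithelial cells, written with Shh beside Prmt5. The 3 control libraries are labelled WT and came from littermates. The labels do not name a Cre line. The number of embryos behind a library is not stated. Prmt5 encodes an arginine methyltransferase that acts on histones and on splicing proteins.

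D cyclins bind the kinases CDK4 and CDK6, and the complexes phosphorylate the retinoblastoma protein, which frees E2F factors to switch on the genes of S phase. INK4 proteins block CDK4 and CDK6, while Cip/Kip proteins bind a wider range of cyclin and kinase complexes and mostly hold back CDK2. D cyclins are the part of this machine that growth signals raise, and the inhibitors are raised when cells differentiate, age or meet DNA damage.

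In the mutants, Cdkn1a, which encodes p21, rose 3.98-fold, while the other 8 genes all had a lower mean than in the controls. None of the 7 of those that could be tested passed, and Cdkn2b was too low to test. The largest tested difference was that of Cdkn1c, which encodes p57, at 33.5% below the control mean with groups that did not overlap. It passed under 2 other settings, given below. Whole tissue was sequenced, so fewer cells of a type and less RNA per cell cannot be told apart.

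One known activator of Cdkn1a is p53, and the sequence of Cdkn1a is shown because it rose together with other p53 target genes. Whether p53 or another activator lay behind the rise was not tested. The tables of RefSeq (GRCm38.p6) held start windows, 250 bases before to 50 after a start, for 6 of the 9 genes (not for Cdkn1c, Ccnd1 and Ccnd2), 9 windows in all. Cdkn1a had 2 starts, 2790 bases apart. A search for the letters CATGNNNNNNCATG, the centre of 2 adjoining p53 half-sites and its own reverse complement, found 1 match in the 9 windows, in the upstream window of Cdkn1a. That motif was chosen with this window known. It lay at chr17:29090931-29090944 on the plus strand, 48 bases before the upstream start and 2838 before the downstream start. A match was found in 0.712% of all 32851 windows. In the first sequence the capitals mark that match, and in the other 2 they mark GC boxes (GGGCGG on either strand). All 3 are on the plus strand, at chr17:29090729-29091028, chr17:29093519-29093818 and chr6:134920151-134920450. Cdkn1b is shown as another Cip/Kip gene with a window in the tables, for comparison with Cdkn1a.
Cdkn1a upstream start: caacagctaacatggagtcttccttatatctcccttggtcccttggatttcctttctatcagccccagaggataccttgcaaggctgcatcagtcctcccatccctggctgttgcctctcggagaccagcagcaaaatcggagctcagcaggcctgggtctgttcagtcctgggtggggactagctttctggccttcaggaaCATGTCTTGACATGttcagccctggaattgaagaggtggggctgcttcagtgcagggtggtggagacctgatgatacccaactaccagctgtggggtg
Cdkn1a downstream start: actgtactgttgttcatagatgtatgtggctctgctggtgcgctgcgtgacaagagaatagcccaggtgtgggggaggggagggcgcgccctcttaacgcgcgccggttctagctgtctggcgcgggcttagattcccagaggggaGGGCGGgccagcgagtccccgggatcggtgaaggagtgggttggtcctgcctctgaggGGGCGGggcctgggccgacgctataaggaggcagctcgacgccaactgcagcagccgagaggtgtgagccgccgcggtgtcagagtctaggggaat
Cdkn1b start: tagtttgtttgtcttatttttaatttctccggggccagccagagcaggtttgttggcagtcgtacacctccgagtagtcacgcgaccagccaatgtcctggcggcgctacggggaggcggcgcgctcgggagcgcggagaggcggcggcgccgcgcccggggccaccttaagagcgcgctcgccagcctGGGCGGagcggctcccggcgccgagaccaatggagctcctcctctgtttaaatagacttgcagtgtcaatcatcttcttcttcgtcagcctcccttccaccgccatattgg

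GC boxes were found in 7 of the 9 windows, against 35.7% of all windows. No window of the 9 held the E2F letters TTTGGCGC or TTTCGCGC on either strand, which 0.813% of all windows hold. The letters TGACGTCA, bound by CREB factors, were in the Cdkn2b window alone, 46 bases before its start, against 1.79% of all windows. These matches describe the sequence and were not tested for binding.

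The libraries had 15652503 to 18682463 reads behind their values. The levels are given in FPKM, which is reads scaled by gene length and by the depth of the library. In a test with limma on log2(FPKM + 1), 12838 genes with at least 2 libraries at 1 FPKM or above were kept, and 303 passed an adjusted p of 0.05 (Benjamini-Hochberg). That is 2.36% of the genes tested. Prmt5 itself was at 23.7 and 20.1 FPKM in the mutants, against 28.7, 26.4 and 25.8 FPKM in the controls (log2 change -0.29, limma adjusted p = 0.234). Whole tissue was sequenced, so the level of Prmt5 in the epithelium alone was not measured. Xist, which coats the inactive X chromosome of females, had 0.0673 and 0.289 FPKM in the mutants, against 57.3, 58.1 and 115 FPKM in the controls. From the Y chromosome, Ddx3y had 12.0 and 10.8 FPKM in the mutants, against 9.91, 6.70 and 2.54 FPKM in the controls, so each control held RNA of both sexes. The sexes were thus not balanced between the genotypes, and for Cdkn1a a fit with the male share of each library is given below. This share is a relative level: the summed FPKM of Ddx3y, Eif2s3y, Kdm5d and Uty over that of the highest library. It was 1 and 0.860 in the mutants, against 0.730, 0.598 and 0.142 in the controls. It runs largely with genotype, so a fit with it cannot fully part sex from genotype. The median log2 change of all genes tested was -0.06.

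Of the 9 genes, 8 were kept by the filter and 1 of the 8 passed, against that background of 2.36%. It was higher, as were 0.989% of the genes tested, and 0 of the 8 passed with a lower level, against 1.37%. Cdkn2b did not reach the filter. For 6 of the 8, both mutants lay below all 3 controls, a pattern seen in 24.4% of the genes tested. For 1, Cdkn1a, both lay above, which 13.2% showed. An unadjusted p under 0.05 with a lower level was found for 4 of the 8, which 12.3% of the genes tested also had, and for 1 with a higher level, against 6.53%. The log2 change was below 0 for 7 of the 8 and for 61.1% of the genes tested. With voom, a limma method for reads, 1 of the 8 passed with a higher level, against 1.86% of the genes tested, and 1 with a lower level, against 2.80%. The median log2 change of the 8 was -0.25, and it was -0.29 without Cdkn1a. Mutant replicate 2 had the lowest value of the 5 libraries for 8 of the 9 genes, Cdkn1a being the exception. The median ratio size factor of that library was 0.923, against 1.00 to 1.05 in the other 4. After division by these factors both mutants still lay below all 3 controls for the same 6 genes. With that scaling 7 of the 8 had a log2 change below the median of all genes.

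**Figure D1:**
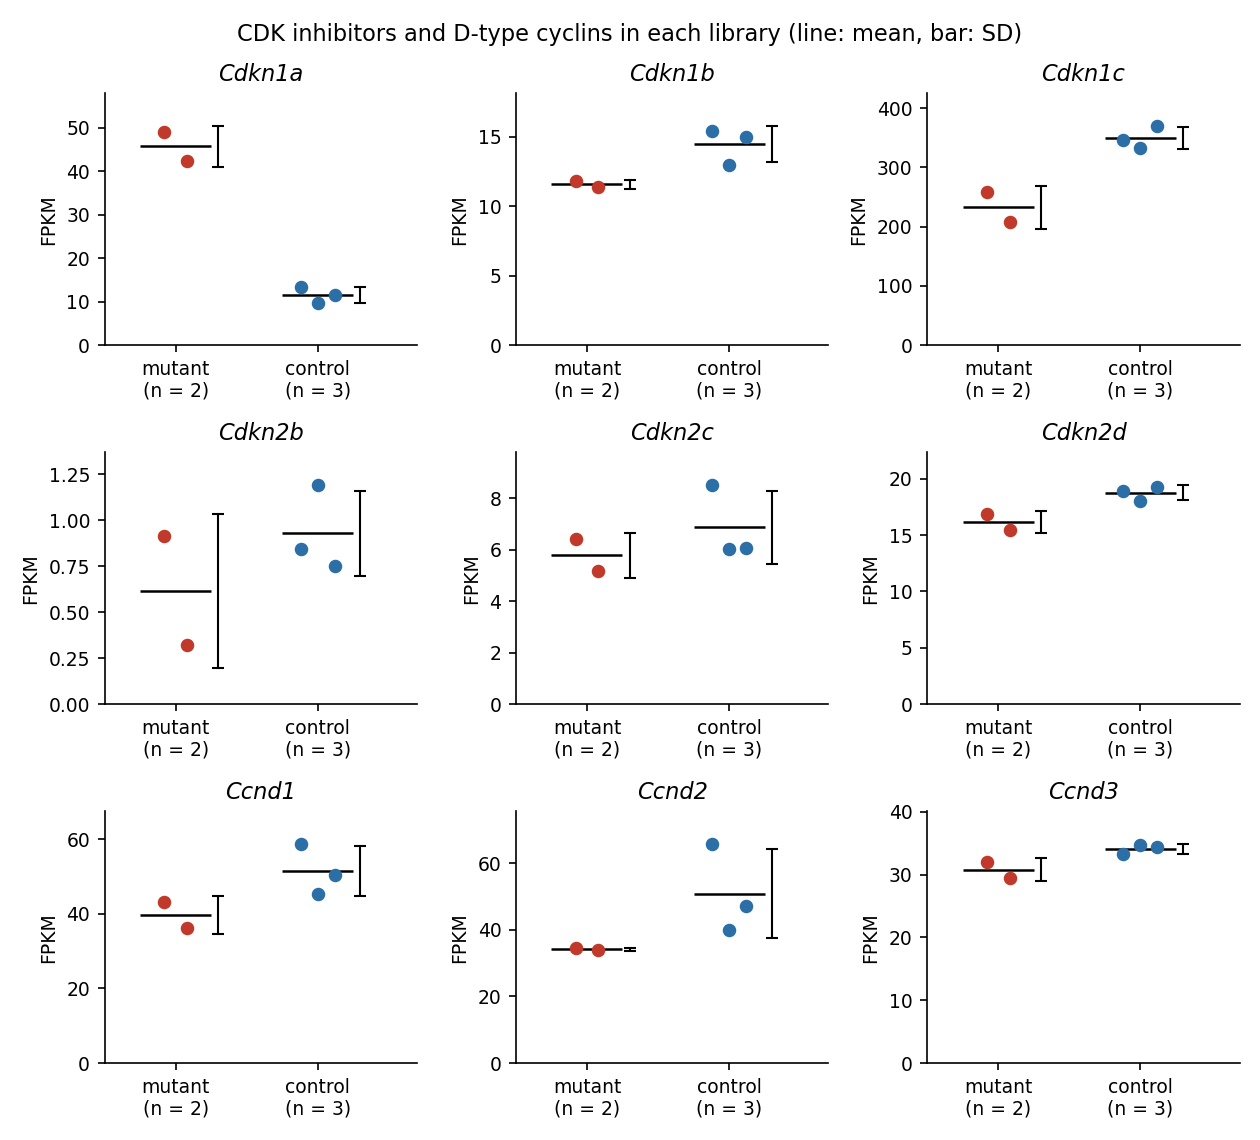
FPKM of each of the 9 genes in every library, with mutants on the left and controls on the right of each panel. Points are libraries, lines are means and bars are SD. The mutants have 48.9 and 42.4 FPKM of Cdkn1a and the controls no more than 13.3 FPKM, while both mutants lie below all controls for 6 of the other 8 genes.

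Cdkn1a encodes p21, a Cip/Kip inhibitor and the main cell cycle target of p53. It was at 48.9 and 42.4 FPKM in the mutants, against 13.3, 9.68 and 11.4 FPKM in the controls. These levels rest on 1714 and 1475 reads in the mutants, against 552, 351 and 463 reads in the controls. Both mutants lay far above all 3 controls, and the gap between the groups was wider than the spread within either. The means were 45.7 ± 4.63 FPKM in the mutants (SD, n = 2) and 11.5 ± 1.80 FPKM in the controls (SD, n = 3). The log2 change was 1.91 (SE 0.15, 95% interval 1.57 to 2.25, limma adjusted p = 0.00618), in a direction that 0.989% of the genes tested shared past the threshold. It stayed past the threshold when the male share of the libraries was added as a covariate (log2 change 1.82, adjusted p = 0.0321), and when epithelial content was added (log2 change 2.05, adjusted p = 0.00893). It lost the threshold without mutant replicate 1 or without mutant replicate 2 (log2 change 1.81 and 2.01, adjusted p = 0.0621 and 0.0640), where the spread of the 1 mutant left was taken to be that of the controls. The gene lies on chromosome 17 (29090976 to 29100727, plus strand, GRCm38). The gene length behind its FPKM was 2223 bases, against a summed exon length of 3553 bases in GENCODE M21. A level of Cdkn1a set against another gene rests on the shorter length.

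Cdkn1b encodes p27, the Cip/Kip inhibitor whose level in most cells is set by protein turnover. It was at 11.8 and 11.4 FPKM in the mutants, against 15.4, 13.0 and 15.0 FPKM in the controls. The groups did not overlap, and the mean was 19.9% lower in the mutants. The log2 change was -0.29 (95% interval -0.56 to -0.02) and did not pass (limma adjusted p = 0.226).

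Cdkn1c encodes p57, an imprinted inhibitor expressed from the maternal allele and known for its high level in differentiating cells of the embryo. It was the most abundant of the 9 by far, at 258 and 207 FPKM in the mutants, against 347, 334 and 369 FPKM in the controls. The groups did not overlap, and the mutants differed more from each other (by 1.24 times) than the controls did (by 1.11 times). The means were 233 ± 35.7 FPKM in the mutants (SD, n = 2) and 350 ± 18.1 FPKM in the controls (SD, n = 3). The log2 change was -0.59 (SE 0.13, 95% interval -0.91 to -0.28), just short of the threshold with limma (adjusted p = 0.0679). It passed with voom on reads recovered from the FPKM values (log2 change -0.60, adjusted p = 0.0399), by which 4.66% of the genes tested passed. It also passed, narrowly, with conversion to TPM without Gm23935 (log2 change -0.67, adjusted p = 0.0498). It did not pass with the male share as a covariate (adjusted p = 0.365), with epithelial content (adjusted p = 0.146) or with the replicate block (adjusted p = 0.134). Without mutant replicate 2 the log2 change was -0.44, and without mutant replicate 1 it was -0.75. Kcnq1ot1, the non-coding RNA that silences the paternal copy of this domain, was at 0.695 and 0.811 FPKM in the mutants, against 0.786, 1.07 and 0.864 FPKM in the controls. It was looked up after the values were seen and its groups overlapped.

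The 3 Cip/Kip genes therefore stood in different proportions in the 2 genotypes. Cdkn1a made up 15.4% and 16.2% of the summed Cip/Kip FPKM in the mutants, against 3.54%, 2.72% and 2.89% in the controls. Cdkn1c made up 80.9% and 79.4% in the mutants, against 92.4%, 93.6% and 93.3% in the controls, while the share of Cdkn1b overlapped between the groups. Cdkn1a was at 4.15 and 3.73 times the level of Cdkn1b in the mutants, against 0.865, 0.746 and 0.762 times in the controls. The gain of Cdkn1a was smaller in FPKM than the deficit of Cdkn1c, so the summed Cip/Kip level was 319 and 261 FPKM in the mutants, against 376, 356 and 396 FPKM in the controls. These shares follow from the levels above. They were given no test of their own, since 2 against 3 libraries allow an exact permutation p of 0.1 at best.

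**Figure D2:**
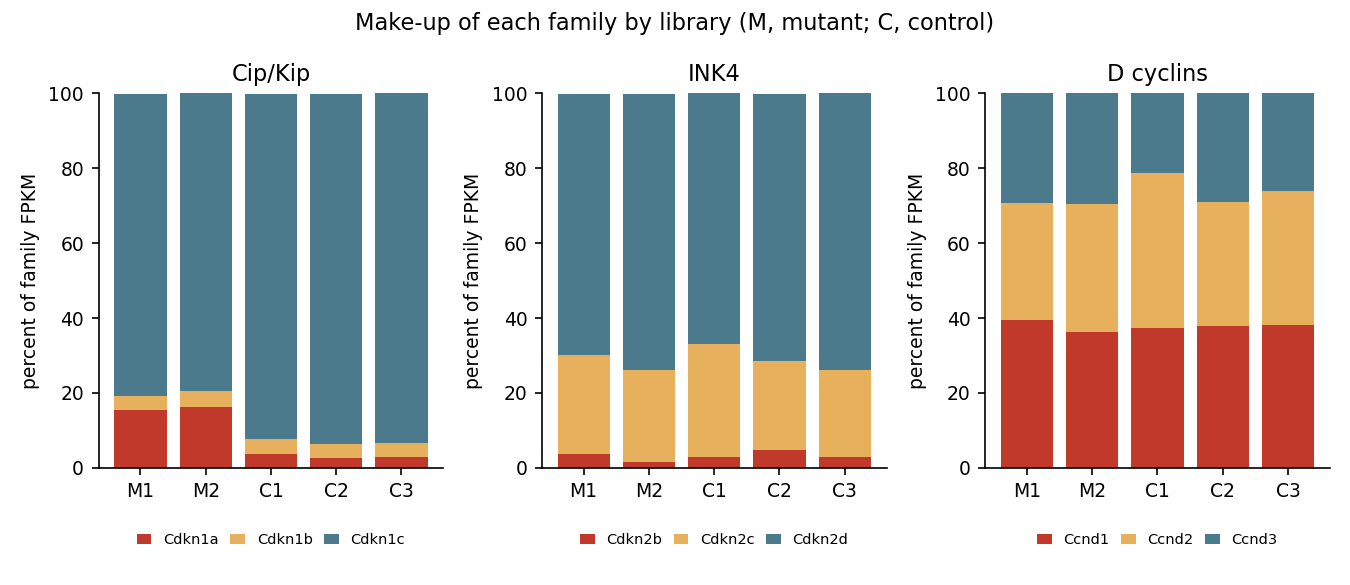
Share of each gene in the summed FPKM of its family, in percent, for the mutant libraries M1 and M2 and the control libraries C1 to C3. Cdkn1a takes 15.4% and 16.2% of the Cip/Kip sum in the mutants and 2.72% to 3.54% in the controls, while the shares of the INK4 genes overlap between the groups.

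Of the INK4 inhibitors, Cdkn2d, which encodes p19INK4d, was the most abundant. It was at 16.9 and 15.5 FPKM in the mutants, against 19.0, 18.05 and 19.3 FPKM in the controls. The groups did not overlap, but the mutant mean was 13.8% lower only and did not pass (log2 change -0.20, 95% interval -0.44 to 0.04, limma adjusted p = 0.345). Cdkn2c, which encodes p18INK4c, was at 6.40 and 5.16 FPKM in the mutants, against 8.51, 6.03 and 6.09 FPKM in the controls. Its groups overlapped, and control replicate 1 stood above the other 4 libraries (log2 change -0.21, 95% interval -0.61 to 0.19, limma adjusted p = 0.583). The log2 change of Cdkn2c was -0.06 without control replicate 1, -0.07 without mutant replicate 2 and 0.020 with epithelial content as a covariate, so its direction was not stable. With the male share as a covariate the log2 change was -0.47. Cdkn2b, which encodes p15INK4b, a target of TGF-beta signalling, was at 0.911 and 0.321 FPKM in the mutants, against 0.845, 1.19 and 0.749 FPKM in the controls. These values rest on 20 and 7 reads in the mutants, against 22, 27 and 19 reads in the controls, so they say little on a difference. Cdkn2a, the neighbour of Cdkn2b that encodes p16INK4a and p19ARF, had 0 and 2 reads in the mutants, against 0, 0 and 3 reads in the controls. It is no member of the group and was below the filter. The shares of Cdkn2b, Cdkn2c and Cdkn2d in the INK4 sum overlapped between mutants and controls.

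Of the D cyclins, Ccnd2, whose expression marks proliferating progenitors in several tissues, had the largest difference. It was at 34.5 and 33.8 FPKM in the mutants, against 65.6, 39.9 and 47.1 FPKM in the controls. The groups did not overlap, but the controls were wide apart, with control replicate 1 highest. The mean was 32.8% lower in the mutants (log2 change -0.53, 95% interval -0.99 to -0.07, limma adjusted p = 0.200). Without control replicate 1 the log2 change was -0.33, and without control replicate 2 it was -0.69. With the male share as a covariate it was -0.73. The summed level of 13 epithelial markers was 330 FPKM in each mutant, against 819, 422 and 317 FPKM in control replicates 1, 2 and 3, so the control highest for Ccnd2 was also highest for these markers. With the epithelial content of each library as a covariate, the log2 change of Ccnd2 was -0.25 (adjusted p = 0.544). That content was the mean log2(FPKM + 1) of these markers, at 4.305 and 4.3 in the mutants, against 5.557, 4.709 and 4.379 in the controls. Control replicate 1 stood furthest from the other libraries, so the fit rests much on it. That library was also highest for skeletal muscle, cartilage, smooth muscle and erythroid markers, with sums of 244, 151, 427 and 5397 FPKM. It was not highest for the remaining marker lists. No fit with the content of those other tissues was made. The cause of the Ccnd2 difference was not tested.

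Ccnd1, the D cyclin induced by growth factor and Wnt signals, was at 43.2 and 36.1 FPKM in the mutants, against 58.6, 45.3 and 50.4 FPKM in the controls. The groups did not overlap, but mutant replicate 1 lay close to control replicate 2 (log2 change -0.36, 95% interval -0.70 to -0.03, limma adjusted p = 0.223). The log2 change of Ccnd1 was -0.24 without mutant replicate 2 and -0.23 with epithelial content as a covariate. It was larger, at -0.49, without mutant replicate 1, and at -0.48 with the male share as a covariate. Ccnd3, the D cyclin known for its part in blood cells and in maturing muscle, was the steadiest of the 9 between libraries. It was at 32.1 and 29.5 FPKM in the mutants, against 33.2, 34.7 and 34.3 FPKM in the controls, a highest value 1.18 times the lowest. Its mutant mean was 9.65% lower (log2 change -0.14, 95% interval -0.38 to 0.09, limma adjusted p = 0.501). The log2 change of Ccnd3 was -0.08 without mutant replicate 2 and -0.06 with median ratio scaling. In the other direction it was -0.20 without mutant replicate 1 and -0.22 with TPM without Gm23935.

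The summed level of the 3 D cyclins was 110 and 99.4 FPKM in the mutants, against 157, 120 and 132 FPKM in the controls. Ccnd3 made up 29.2% and 29.7% of it in the mutants, against 21.1%, 28.9% and 26.0% in the controls, so the groups lay side by side with a small gap. The shares of Ccnd1 and Ccnd2 overlapped. The Cip/Kip sum was 2.90 and 2.63 times the D cyclin sum in the mutants, against 2.39, 2.97 and 3.004 times in the controls, which overlapped. Cdkn1a alone was at 0.446 and 0.426 times the D cyclin sum in the mutants, against 0.0844, 0.0808 and 0.0868 times in the controls, and here the groups were far apart.

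**Figure D3:**
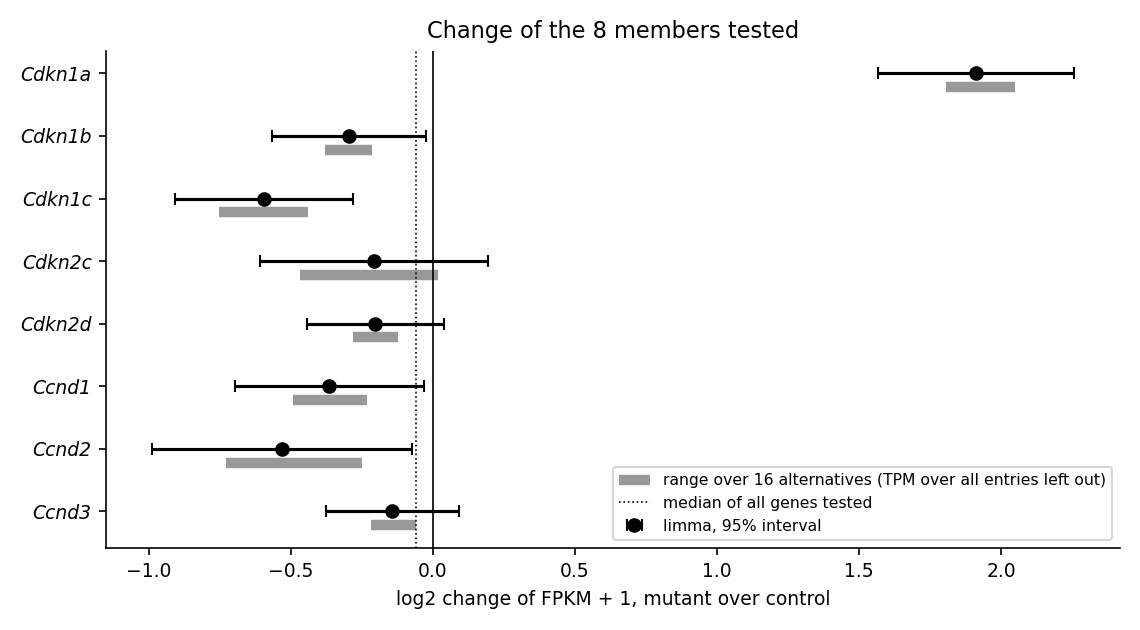
Log2 change of FPKM + 1, mutant over control, for the 8 genes tested, with the 95% interval of limma as a black bar. Grey bars span 16 other settings, leaving out TPM over all entries, and the dotted line is the median of all genes. Cdkn1a stands at 1.91, and the other 7 lie between -0.59 and -0.14.

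By mean FPKM over the 5 libraries, the order of levels was Cdkn1c (303), Ccnd1 (46.7), Ccnd2 (44.2), Ccnd3 (32.8), Cdkn1a (25.1), Cdkn2d (17.7), Cdkn1b (13.3), Cdkn2c (6.44) and Cdkn2b (0.803). The range of Cdkn1c lay wholly above that of Ccnd1, and the ranges of Cdkn2d, Cdkn1b, Cdkn2c and Cdkn2b were also apart from one another. Cdkn2d and Cdkn1b were apart by little, with 15.5 FPKM as the lowest value of Cdkn2d and 15.4 FPKM as the highest of Cdkn1b. The FPKM of Cdkn2d rests on a length of 1271 bases, against 1574 bases in GENCODE M21, so whether their ranges are apart depends on the length used. Ccnd1 and Ccnd2 were not apart, with Ccnd1 higher in 4 of 5 libraries. Ccnd2 was above Ccnd3 in 5 of 5 libraries, though their ranges overlapped. Cdkn1a had no fixed place: it was above all 3 D cyclins in mutant replicate 1 and mutant replicate 2 and below Cdkn2d in the 3 controls. Its FPKM rests on a length of 2223 bases, against 3553 bases in GENCODE M21. Whether Cdkn1a is above the D cyclins in the mutants thus depends on the length used.

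The genes lie in pairs on 4 chromosomes, with Cdkn2d alone on chromosome 9 (21288410 to 21291407). All coordinates are those of GENCODE M21 on GRCm38. On chromosome 7, Cdkn1c (143458339 to 143461050) and Ccnd1 (144929931 to 144939925) are 1.47 Mb apart. On chromosome 6, Ccnd2 (127125162 to 127152193) and Cdkn1b (134920401 to 134925513) are 7.77 Mb apart. On chromosome 17, Cdkn1a and Ccnd3 (47505051 to 47599691) are 18.4 Mb apart, and on chromosome 4, Cdkn2b (89306299 to 89311039) and Cdkn2c (109660876 to 109667189) are 20.3 Mb apart. Ccnd3 overlaps Bysl by 361 bases on the other strand, and Bysl was at 11.3 and 10.3 FPKM in the mutants, against 9.92, 11.8 and 11.3 FPKM in the controls. Ccnd1 overlaps Oraov1 (now LTO1), which was at 3.12 and 3.26 FPKM in the mutants, against 3.18, 2.72 and 3.40 FPKM in the controls. Genes on the other strand also overlap Cdkn1a (AC167363.2, 1046 bases), Cdkn1c (Gm44732, 892 bases) and Ccnd2 (Gm43126, 994 bases, and 9330179D12Rik, 2805 bases), and no values of these were used here. The sources used here do not say whether counting used strand, so reads of such overlaps cannot be told apart. The pseudogene Ccnd3-ps was at no more than 0.144 FPKM in any library.

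The other genes of the G1 pathway were taken from lists chosen with earlier results of these data known. Of 12 G1 kinases, E cyclins and their activators, 0 passed with limma and 0 with voom, with 1 higher and 1 lower at an unadjusted p under 0.05. Their median log2 change was -0.04, against -0.06 for all genes. Ccne2, a cyclin that activates CDK2, was at 9.22 and 11.2 FPKM in the mutants, against 12.5, 13.6 and 12.7 FPKM in the controls (adjusted p = 0.217). Cks1b, a kinase subunit that also helps to degrade p27, was at 115 and 116 FPKM in the mutants, against 95.7, 101 and 86.4 FPKM in the controls (adjusted p = 0.218). Mnat1, a subunit of the CDK-activating kinase, had a log2 change of -0.32 (adjusted p = 0.276). Cdk4, the partner of the D cyclins, was at 182 and 181 FPKM in the mutants, against 194, 203 and 159 FPKM in the controls, and is named here after its values were seen.

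Of 18 pocket protein, E2F and DREAM complex genes, 0 passed with limma and 0 with voom, with 3 lower and 0 higher at an unadjusted p under 0.05. The shares of all genes at that p were 12.3% lower and 6.53% higher. Rb1, which encodes the retinoblastoma protein that D cyclin complexes phosphorylate, was at 2.95 and 2.47 FPKM in the mutants, against 4.32, 3.76 and 4.75 FPKM in the controls. The groups did not overlap (log2 change -0.51, limma adjusted p = 0.118). E2f2, an activating E2F factor, was at a log2 change of -0.50 (adjusted p = 0.147). E2f5, a repressing one, was at -0.30 (adjusted p = 0.239). The median of the list was -0.09.

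Of 17 genes of ubiquitin ligases that turn these proteins over, 0 passed with limma and 1, Cul4b, with voom, and 1 was lower at an unadjusted p under 0.05. Voom called 4.66% of all genes, and 12.3% were lower at that unadjusted p. Cul4b, a scaffold of ligases that degrade p21, was at 17.96 and 19.2 FPKM in the mutants, against 24.97, 26.0 and 27.8 FPKM in the controls. The groups were apart (log2 change -0.48, limma adjusted p = 0.0650). Cdc20, which guides a ligase to mitotic proteins, was at a log2 change of 0.29 (adjusted p = 0.303). Fbxw7, which guides one to cyclin E, was at 0.26 (adjusted p = 0.340).

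Of 27 transcription regulators of these genes that were tested, 1 passed with limma, against 2.36% of all genes, and it was lower. At an unadjusted p under 0.05, 3 were higher and 5 lower, against 6.53% and 12.3% of all genes. With voom 2 passed, against 4.66% of all genes, Jun lower and Lef1, a Wnt effector gene, higher. The gene that limma called was Jun, an AP-1 factor known to activate Ccnd1. It was at 24.5 and 20.2 FPKM in the mutants, against 42.3, 38.2 and 39.5 FPKM in the controls (log2 change -0.82, SE 0.12, limma adjusted p = 0.0215). The groups were apart by more than either group's spread. Id4, a helix-loop-helix inhibitor, was at a log2 change of -0.60 (adjusted p = 0.0736). Klf4, an activator of Cdkn1a, was also at -0.60 (adjusted p = 0.0760). Trp53, which encodes p53, had 55.7 and 45.8 FPKM in the mutants, against 35.5, 45.5 and 40.1 FPKM in the controls (log2 change 0.32, adjusted p = 0.277), and is named here after its values were seen.

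Of 18 p53 targets beside Cdkn1a, 13 passed with limma and 14 with voom, all of them higher, against 0.989% of all genes with limma, at a median log2 change of 1.02 for the list. Pmaip1, which encodes the death protein Noxa, was at 10.4 and 10.0 FPKM in the mutants, against 0.566, 0.556 and 0.602 FPKM in the controls (log2 change 2.83, adjusted p = 0.000667). Ccng1, which encodes cyclin G1, was at 68.4 and 73.8 FPKM in the mutants, against 28.4, 23.3 and 28.2 FPKM in the controls (log2 change 1.39, adjusted p = 0.00641). Epha2, an ephrin receptor gene, Sesn2, a stress gene that restrains mTOR, Eda2r, a gene of the TNF receptor family, and Fas, a death receptor gene, had log2 changes of 1.57, 1.19, 1.65 and 1.36, with limma adjusted p-values of 0.00644, 0.00691, 0.00702 and 0.0107 in that order. Of the other 5, Bax was at a log2 change of 0.82 (adjusted p = 0.0605). Trp53inp1 was at 0.41 (adjusted p = 0.164), and Ddb2, Btg2 and Xpc were at -0.35, -0.12 and -0.07. The list was chosen with its rise in these data known, so the count is no independent evidence of its direction.

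Genes further down the pathway were read as well. Of 28 E2F target genes of S phase, 0 passed with limma and 0 with voom, with 2 higher and 0 lower at an unadjusted p under 0.05. In sign 23 were higher and 5 lower, and the median log2 change was 0.10. Gins1 and Gins2, subunits of the replicative helicase, and Pcna, the sliding clamp of DNA polymerase, had log2 changes of 0.42, 0.28 and 0.33, and their limma adjusted p-values were 0.193, 0.222 and 0.276. Of 16 markers of G2 and mitosis, 0 passed with limma and 0 with voom, with 1 higher at an unadjusted p under 0.05, and the median was 0.13. In sign 13 of the 16 were higher and 3 lower. Cdk1, the mitotic kinase, was at 53.3 and 61.4 FPKM in the mutants, against 49.7, 47.9 and 38.9 FPKM in the controls (adjusted p = 0.253). Ube2c, of mitotic exit, was at a log2 change of 0.30 (adjusted p = 0.376). Ccnb2, of mitotic entry, was at 0.19 (adjusted p = 0.438).

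**Figure D4:**
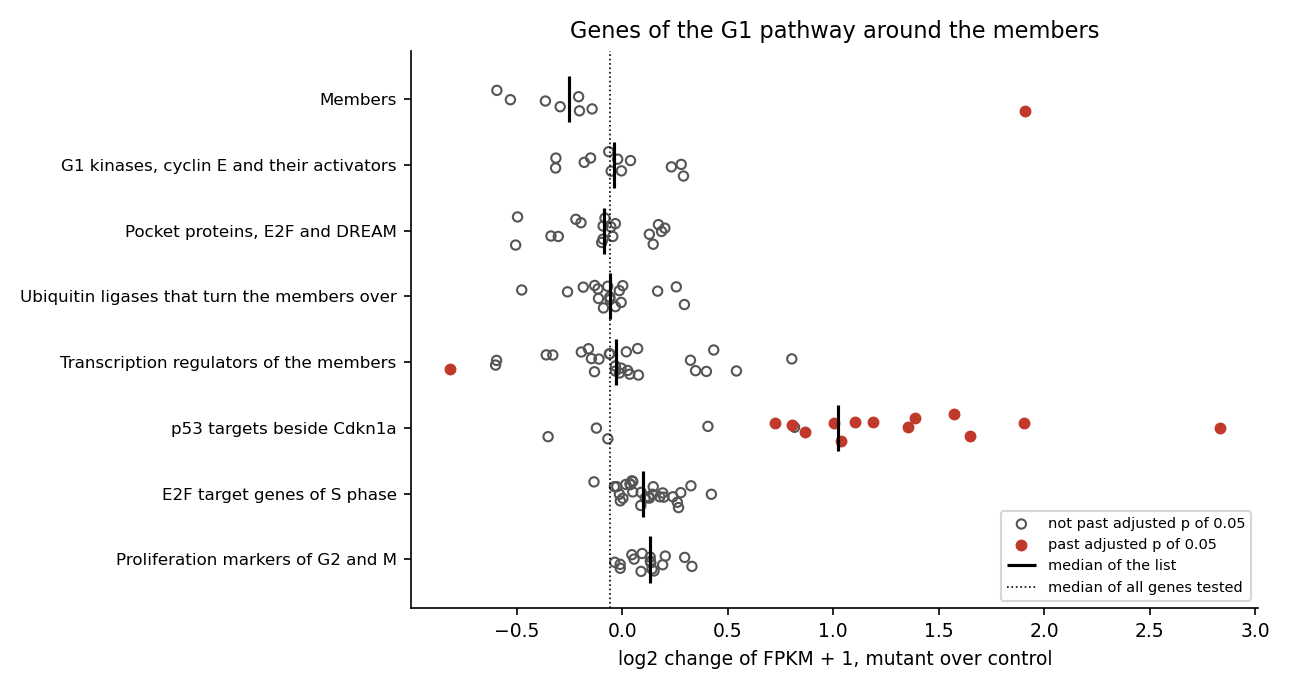
Log2 change of FPKM + 1, mutant over control, of each gene tested, for the 9-gene group (8 tested) and for 7 lists around it. Filled points are past an adjusted p of 0.05 and vertical ticks are list medians. The p53 targets lie to the right with a median of 1.02, and the medians of the other 6 lists lie between -0.09 and 0.13.

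Only 1 of the 9 genes passed, so profiles were compared for Cdkn1a alone. By Euclidean distance between log2(FPKM + 1) values centred on their mean over the 5 libraries, the 3 nearest genes were Ddit4l, Nkx2-9 and Gm24191, at distances of 0.296, 0.320 and 0.338. Ddit4l, which encodes an mTOR inhibitor, had 7.44 and 8.15 FPKM in the mutants, against 2.00, 1.22 and 1.24 FPKM in the controls. Nkx2-9, which encodes a homeobox factor, had 4.32 and 3.89 FPKM in the mutants, against 0.254, 0.146 and 0.130 FPKM in the controls. Gm24191, a predicted gene, had 2.60 and 2.62 FPKM in the mutants from 5 reads in each, and was listed at 0 in the 3 controls. On the log2(FPKM + 1) scale changes of low genes come out too small, so such genes can lie near Cdkn1a with a larger fold. The mean FPKM of Nkx2-9 rose 23.2-fold, against 3.98-fold for Cdkn1a. No p is given, as the 5 libraries are few and the genes were picked for being near.

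Marker levels of several tissues differed between the groups. Skeletal muscle markers fell in 11 of 12 tested, against 1.37% of all genes, with summed levels of 18.7 and 48.6 FPKM in the mutants, against 184 to 244 FPKM in the controls. Of the defining markers Myf5 was at 0 in mutant replicate 2 and Myf6 at 0 in mutant replicate 1, while Myog was at 2.33 and 4.96 FPKM in the mutants, against 37.0, 23.4 and 23.6 FPKM in the controls. Cartilage markers fell in 4 of 7 tested, against the same 1.37%, and 6 of 7 were lower at an unadjusted p under 0.05, against 12.3% of all genes. Their summed levels were 51.5 to 74.8 FPKM in the mutants, against 118 to 151 FPKM in the controls. Muscle precursors are known to express p57, p21 and Ccnd3 as they leave the cell cycle. The part of these tissues in the levels of Cdkn1a, Cdkn1c and the D cyclins was not tested.

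Mesothelial markers were at summed levels of 104 to 130 FPKM in the mutants, against 17.4 to 61.4 FPKM in the controls, with 1 of 6, Calb2, past the threshold and higher, against 0.989% of all genes. At an unadjusted p under 0.05, 5 of the 6 were higher. The other, Msln, was low in all libraries and went the other way (log2 change -0.56, limma adjusted p = 0.313), with groups that overlapped. Of 5 smooth muscle markers tested, all 5 had a lower mean log2 level, 1 passed with limma (Actg2), against 1.37% of all genes, and 3 passed with voom, with sums of 160 to 199 FPKM in the mutants, against 271 to 427 FPKM in the controls. Of 10 neuronal markers, all 10 had a lower mean log2 level, 2 passed with limma (Dbh and Tubb3), and 4 passed with voom, with sums of 37.1 to 46.6 FPKM in the mutants, against 62.4 to 89.0 FPKM in the controls. Of 13 epithelial markers, 11 had a lower mean log2 level, 5 were lower at an unadjusted p under 0.05, and 1 passed with limma (Foxa1, lower). Of all genes tested, 61.1% had a log2 change below 0, and 12.3% were lower and 6.53% higher at an unadjusted p under 0.05. Past the threshold, 1.37% were lower with limma and 2.80% with voom. Of 11 lung mesenchyme markers, 4 were higher and 2 lower at an unadjusted p under 0.05, and 1 passed with limma (Tbx4, higher, against 0.989% of all genes). The sums overlapped for epithelium, at 330 FPKM in each mutant against 317 to 819 FPKM in the controls, and did not for mesenchyme, at 1682 to 1990 FPKM in the mutants, against 1995 to 2623 FPKM in the controls. The largest part of the mesenchyme sum was Col1a1, at 749 and 610 FPKM in the mutants, against 790, 809 and 1048 FPKM in the controls. The 4 higher genes were Tbx4, Foxf1, Tbx5 and Tcf21, with log2 changes of 1.02, 0.80, 0.57 and 0.51. The 2 lower ones were Dcn and Col1a2, at -0.41 and -0.42. The sum thus does not speak for all 11 markers. Of 8 endothelial, 7 erythroid, 7 macrophage and 6 heart muscle genes tested, 0 passed with limma. At an unadjusted p under 0.05 there were 0, 2, 0 and 1, and voom called 0, 0, 0 and 1. The part of these cell types in the levels of the 9 genes was not tested, beyond the fits with epithelial content.

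**Figure D5:**
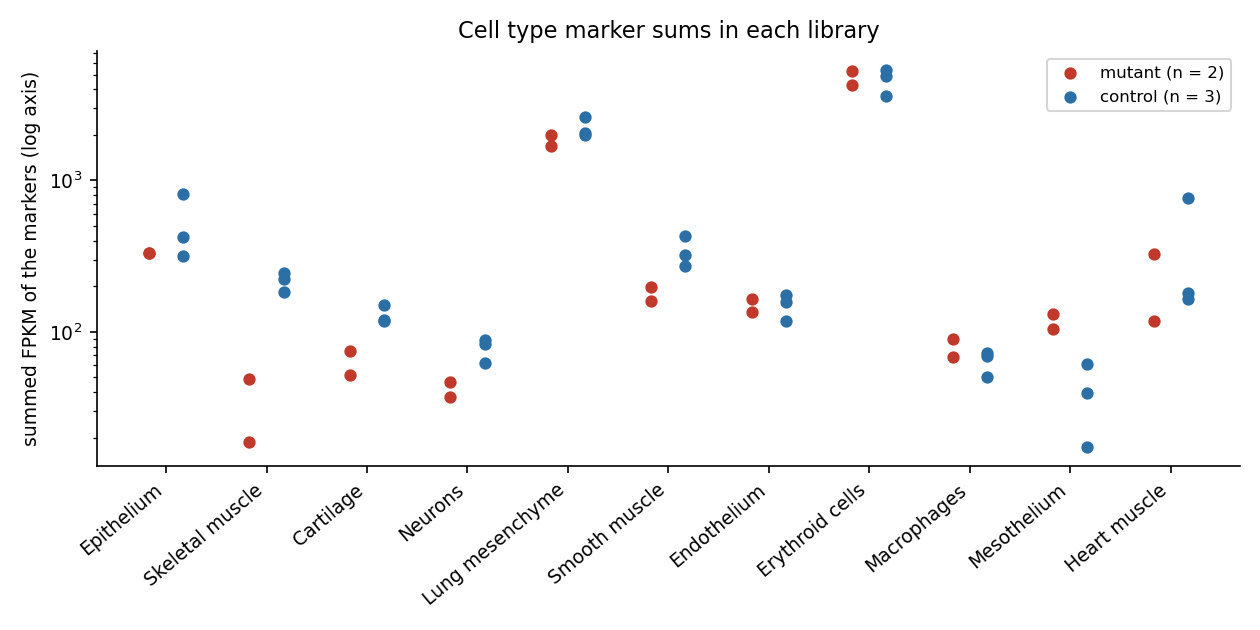
Summed FPKM of the markers of 11 cell types in each library, on a log axis, with mutants left of controls. The skeletal muscle sums are 18.7 and 48.6 FPKM in the mutants and 184 to 244 FPKM in the controls, and the epithelial sums overlap.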

How the data were processed

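RNA-seq of 2 mutant and 3 control libraries was analysed, with groups and replicate numbers taken from the titles. The authors deposited 1 table of FPKM values, and the unit comes from its name. GRCm38 (mm10) is the build in the submitters' processing notes. The sources used here do not give the aligner, the counter or the use of strand. The labels also carry a treatment text on fat cell induction, which was not used. Per the labels' protocols, a SMARTER kit turned total RNA into libraries.

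The test was limma 3.58.1 in R 4.3.3 (eBayes with a trend, two-sided, no covariate) on log2(FPKM + 1), a scale on which changes of low genes come out too small. It ran over the 12838 genes with at least 2 libraries at 1 FPKM or above, with Benjamini-Hochberg adjustment over all of them. Where a tool is not named, an adjusted p is limma's. Fold and percent differences are of mean FPKM. Reads were recovered from the steps between values: with the summed exon lengths of GENCODE M21 they were whole for 13961 of 19699 entries (70.9%), and for the rest with a length found from the steps, so that all 19699 entries gave whole reads. Voom on them called 598 genes. Nothing says that libraries came from separate embryos, so the p-values speak only of how these libraries varied, in part perhaps technically. The limma test was run on simulated reads with known fold changes. The recovery of reads was not part of that simulation.

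The 9 genes, the lists and the tests were chosen with earlier results of these data known. The naming rule gave all 9 genes and Prmt5, up to 6 called genes of each list or the 3 with the smallest p, and the 3 nearest profiles. Other named genes were chosen after their values were seen: Xist, Kcnq1ot1, Cdkn2a, Bysl, Oraov1, Ccnd3-ps, Cdk4, Trp53, Myf5, Myf6 and Myog, with Lef1, Ddx3y, Bax, Trp53inp1, Ddb2, Btg2 and Xpc, and Foxa1, Tbx4, Calb2, Actg2, Dbh and Tubb3 as the called genes of small marker counts. Foxf1, Tbx5, Tcf21, Dcn, Col1a1, Col1a2 and Msln of the marker lists were also named with their values seen. Tnnc2 and Snorc of the marker lists had no row under these symbols.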

Additional observations from a re-analysis of the deposited data

How the results depend on the processing

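Of 136 values of the 8 tested genes under 17 alternatives, 130 kept their direction and their side of the threshold. Cdkn1a lost it with TPM over all entries (log2 change 1.39, or 1.98 relative to the median of all genes, which that scaling moved to -0.59, with Gm23935 at 7.69% to 64.8% of the summed FPKM), and without either mutant. Cdkn2c reversed, to 0.020, with epithelial content as a covariate. Cdkn1c passed with voom and with TPM without Gm23935. The count of the 9 genes past the threshold was 0 with TPM over all entries, 2 with TPM without Gm23935, 2 with voom, and 0 to 1 with 1 library left out. The count of all genes, 303, was 69 with no filter, 67 with TPM over all entries, 598 with voom, 55 with the male share as a covariate and 130 with epithelial content as a covariate, and ranged from 4 to 284 with 1 library left out. Higher and lower calls were 127 and 176, but 151 and 140 with median ratio scaling, 133 and 117 with quantile normalization, 40 and 29 with no filter, 10 and 57 with TPM over all entries and 104 and 255 with TPM without Gm23935. With the replicate block the count was 259, and 1 of the 9 genes passed. Nothing in the labels says that the numbers pair libraries. Deviations of same-numbered libraries correlated at -0.07 and 0.02. With 2 mutants the deviations of 1 mirror those of the other, so these values cannot decide on pairing. The cause of these changes was not tested. With 2 mutants the intervals are wide, for Ccnd2 from -0.99 to -0.07.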
